A study of Mus musculus with 2 samples.

Results

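Endothelial cells line blood and lymph vessels, and the cells described here are those of the mouse calvarial defect that carried endothelial transcripts. They were selected on measured counts: a cell needed at least 2 unique molecular identifiers (UMIs, each the count of 1 captured transcript) of Cdh5, at least 8 UMIs of Pecam1, Emcn, Egfl7 and Kdr together, at most 3 UMIs of the mesenchymal genes Pdgfra and Prrx1, and under 3% of its UMIs from the neutrophil genes S100a8 and S100a9. This gate held 85 of the 17129 cells within the limits on cell quality (500 to 140000 UMIs, 200 to 9500 genes and at most 15% mitochondrial UMIs), 32 from the GA library and 53 from the Control library. Since the 5 genes Cdh5, Pecam1, Emcn, Egfl7 and Kdr chose the cells, their levels are given only as a description.

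Single-cell RNA-seq was made of cells from a calvarial defect of 1.8 mm in mice, taken at day 7 after injury. The labels name the strain C57BL/6 and the study's methods name C57BL/6J. Male mice of 2 months were injected with 100 µL into the peritoneum every day for 1 week, starting 24 h before the injury. The GA group was given gambogic amide at 1.2 mg/kg in 10% DMSO, a small molecule, and the Control group was given 10% DMSO alone. Bone around the defect was digested 6 times with collagenase, and the cells of 5 mice were pooled into 1 library for each group. The sample records give this bone an edge of about 3 mm, while the study's methods describe a circle with a diameter of 3 mm. All mice were injured and handled alike in other respects, and no uninjured group was used here. With 1 library for each group there were no replicates, so no test between GA and Control was possible. Each difference is given as the values of 2 libraries, and its 95% interval covers counting error only, not differences between mice.

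Endothelial cells are held together by junctions of VE-cadherin (Cdh5), PECAM-1 (Pecam1) and claudin-5 (Cldn5), and respond to VEGF through the receptors Kdr and Flt1. In growing vessels, tip cells lead the sprout and express Esm1, Apln and Pgf, while Notch signals between neighbours restrain sprouting and favour arterial fate. Venules recruit leukocytes through selectins and adhesion molecules such as Selp, Icam1 and Vcam1, and the sinusoids of bone marrow express scavenger receptors such as Stab2. In bone, endothelial cells also send angiocrine signals, such as PDGF-B, SCF (Kitl) and BMPs, to perivascular and bone-forming cells.

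The label was checked against 13 endothelial genes that the rule did not use, namely Tie1, Tek, Flt1, Eng, Erg, Sox17, Sox18, Cldn5, Esam, Ramp2, Robo4, Mmrn2 and Ecscr. UMIs of at least 4 of them were found in 78 of the 85 cells, 26 from GA and 52 from Control, with a median of 12 of the 13 in either library. The other 7 cells carried 0 or 1 of them, and these go against the label. In the 6 such GA cells, with 11153 to 28627 UMIs each, Cdh5 was at 2 to 5 UMIs and Pecam1 at 7 to 25 UMIs, while Emcn, Flt1, Cldn5 and Plvap were at 0. The same 6 cells carried 8 to 40 UMIs of Siglech, a lectin known from plasmacytoid dendritic cells, together with 4 to 33 UMIs of the leukocyte gene Ptprc and 9 to 49 UMIs of the transcription factor Runx2. The 1 such Control cell, with 18299 UMIs, had 2 UMIs of Cdh5, 11 of Pecam1, 9 of Ptprc and 0 of Siglech. Values are therefore given for the gate of 85 cells and, where it matters, for the 78 cells with at least 4 of the 13 genes, a choice made after the values had been seen. Of the other 78 cells, 4 from GA and 5 from Control also had at least 2 UMIs of Ptprc. Leaving out every cell with 2 or more UMIs of Ptprc left 69 cells, 22 from GA and 47 from Control.

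**Figure D1:**
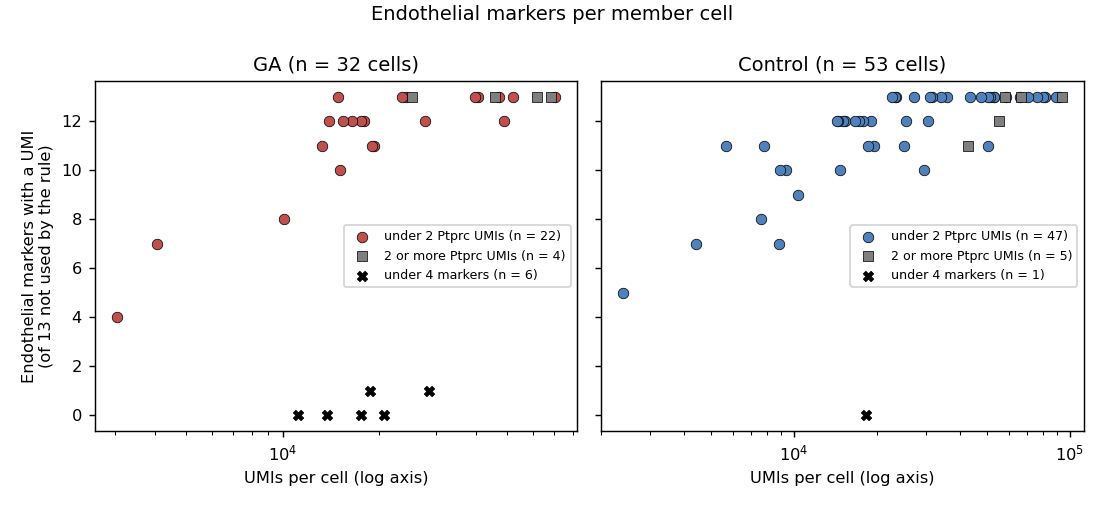
Each point is 1 cell of the gate, with its UMIs on a log axis and the number of the 13 endothelial genes with a UMI, in GA (32 cells, left) and Control (53 cells, right). Crosses mark the 6 GA cells and 1 Control cell with under 4 of the genes, and squares the cells with 4 or more of the genes that also had 2 or more UMIs of Ptprc.

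The thresholds cut through cells of both kinds. Of the cells just outside, those with 1 UMI of Cdh5 and at least 8 UMIs of the other genes numbered 11 in GA and 7 in Control, of which 1 in each had at least 4 of the 13 genes. Siglech was detected in 81.8% and 71.4% of them. Just inside, with 2 or 3 UMIs of Cdh5, were 6 GA cells and 3 Control cells, of which 1 and 2 had at least 4 of the 13 genes. The limit on Pdgfra and Prrx1 kept out 4 GA and 13 Control cells, of which 4 and 11 had at least 4 of the 13 genes, so some cells with both endothelial and mesenchymal transcripts are not described here.

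The members made up 0.354% (95% exact Clopper-Pearson interval 0.242% to 0.4996%) of the 9036 GA cells and 0.655% (0.491% to 0.856%) of the 8093 Control cells. The share in GA was 0.541 times that in Control (0.349 to 0.838). A gate for neutrophils, built on S100a8 and S100a9, held 4762 GA cells and 2028 Control cells. Among the 4254 GA and 6058 Control cells with under 3% of UMIs from S100a8 and S100a9, members made up 0.752% and 0.875%, a ratio of 0.860 with an interval of 0.555 to 1.33 that includes 1. For the 78 cells the ratios were 0.448 (0.280 to 0.716) over all cells and 0.712 (0.445 to 1.14) over the cells low in S100a8 and S100a9. Fewer endothelial cells and more cells of other kinds cannot be told apart in such shares.

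The members were deep relative to the other cells, with a median of 19100 UMIs in GA (3032 to 70579) and 27181 UMIs in Control (2401 to 93262), beside 11238 and 17445 UMIs in the other cells of the same libraries. They summed to 865777 UMIs in GA and 1883518 UMIs in Control. The median cell held 4702 genes in GA and 5313 genes in Control, with 3.63% and 4.30% mitochondrial UMIs. A count of 0 allows up to 3.46 CPM, the usual count scaled to a fixed total, over the GA members and 1.59 CPM over the Control members. The libraries shared 23 barcode sequences, and 0 members were among them.

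Promoters are shown for 4 of the receptors that mark these cells, to display the short core motif of ETS factors, which are known to drive endothelial genes. Each sequence runs 5′ to 3′ along the gene's strand from 250 bases before to 50 bases after the start in RefSeq, build GRCm38.p6, and capitals mark each match to AGGAAG or, on the other strand, CTTCCT. Tie1 (chr4:118489800-118490099, minus strand) encodes an angiopoietin co-receptor, Flt1 (chr5:147725962-147726261, minus strand) VEGF receptor 1, Robo4 (chr9:37401722-37402021, plus strand) a guidance receptor of vessels, and Kdr (chr5:75978406-75978705, minus strand) VEGF receptor 2.
Tie1: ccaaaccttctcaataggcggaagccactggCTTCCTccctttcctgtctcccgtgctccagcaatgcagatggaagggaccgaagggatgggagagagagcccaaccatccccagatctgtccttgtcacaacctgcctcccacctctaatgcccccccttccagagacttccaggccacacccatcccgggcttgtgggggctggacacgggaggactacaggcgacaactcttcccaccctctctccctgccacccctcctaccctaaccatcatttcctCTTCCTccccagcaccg
Flt1: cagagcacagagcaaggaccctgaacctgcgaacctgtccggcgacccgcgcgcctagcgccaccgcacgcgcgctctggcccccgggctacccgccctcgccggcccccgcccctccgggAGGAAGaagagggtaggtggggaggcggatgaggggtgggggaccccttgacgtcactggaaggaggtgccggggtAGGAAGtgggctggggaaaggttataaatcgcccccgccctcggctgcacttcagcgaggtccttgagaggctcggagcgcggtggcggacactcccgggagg
Robo4: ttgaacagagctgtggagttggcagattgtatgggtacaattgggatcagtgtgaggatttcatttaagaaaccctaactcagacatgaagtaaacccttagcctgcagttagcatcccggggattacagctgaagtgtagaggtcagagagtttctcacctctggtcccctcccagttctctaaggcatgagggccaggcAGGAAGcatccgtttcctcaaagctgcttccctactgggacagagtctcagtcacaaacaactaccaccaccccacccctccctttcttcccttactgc
Kdr: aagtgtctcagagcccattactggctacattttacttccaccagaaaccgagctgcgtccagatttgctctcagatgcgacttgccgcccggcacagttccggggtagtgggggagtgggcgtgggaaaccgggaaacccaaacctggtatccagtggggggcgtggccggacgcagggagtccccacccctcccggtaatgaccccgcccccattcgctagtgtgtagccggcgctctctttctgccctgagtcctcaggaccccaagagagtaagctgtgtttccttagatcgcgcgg
The core was matched 2 times in the promoter of Tie1, 2 times in that of Flt1, 1 time in that of Robo4 and 0 times in that of Kdr. Of the 29 genes used by the rule or listed as pan-endothelial, 14 were found in the RefSeq promoter table, and 8 of these (57.1%) held the core, namely Calcrl, Cd34, Egfl7, Emcn, Eng, Flt1, Robo4 and Tie1. The core stood in 9498 of all 27025 promoters of the same length (35.15%). A match is a description of the letters and not a binding site.

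The genes that led the members over all other cells of their library were endothelial genes beyond the 5 of the rule. Cldn5 was at 679 CPM (625 to 736) in GA members and 479 CPM (448 to 511) in Control members, beside 0.931 and 1.61 CPM in the other cells. Flt1 was at 1317 CPM in GA members and 1499 CPM in Control members, beside 4.08 and 12.7 CPM in the other cells. Plvap, which forms the diaphragms of fenestrated endothelium, was at 546 CPM in GA members and 681 CPM in Control members, beside 1.61 and 4.20 CPM. The 20 genes with the highest such ratio among genes with at least 200 UMIs were Cldn5, Ptprb, Aplnr, Flt1, Sox7, Plvap, Prex2, Esam, Sparcl1, Gpihbp1, Prnd, Sox18, Cyyr1, Mmrn2, Tmem252, Podxl, Tie1, Selp, Robo4 and Sox17. Of these, Gpihbp1 and Tmem252 were lower in GA by more than 2-fold, with log2 ratios of GA over Control of -1.20 (-1.52 to -0.89) and -1.15 (-1.44 to -0.87), but neither was past 2-fold over the 69 cells low in Ptprc, at -0.94 and -0.57. These ratios over other cells restate how the cells were selected and were not tested.

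The 5 genes of the rule differed little between the libraries. Cdh5 (chr8:104101625-104144511, build GRCm38 as for all gene positions here) was at 1034 CPM in GA and 1248 CPM in Control, a log2 ratio of -0.27 (-0.38 to -0.16). Pecam1 was at 1109 and 1019 CPM, and Emcn, an endomucin of capillaries and veins, at 1371 and 1260 CPM. Egfl7, a secreted factor of endothelium, was at 721 and 796 CPM, and Kdr at 479 and 480 CPM. Over the 78 cells the log2 ratio of Cdh5 was -0.12 and that of Kdr 0.18. Among the 24 pan-endothelial genes, 0 were past 2-fold in either direction in the gate, and their median log2 ratio was -0.08, beside 0.08 over all 9514 genes with at least 20 UMIs. Their median in the 78 cells was 0.10, and 1 gene, Ly6c1, was past 2-fold, with a log2 ratio of 1.01. Ly6c1, a surface protein of capillaries and of some leukocytes, had a log2 ratio of 0.83 (0.64 to 1.02) in the gate.

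The members were not of a single vessel type. Within the 78 cells, groups that overlap carried high counts of genes known to mark arteries, sprouts, venules, sinusoids or the barrier vessels of brain and dura. A cell can stand in several of them, so they are not separate vessel types. A Control cell with 8 UMIs of Slco1a4 also held 432 of Selp. A GA cell with 87 UMIs of Stab2 held 85 of Selp, and a Control cell with 2 UMIs of Gja5 held 37 of Esm1. These groups were formed on counts of 1 gene, chosen after the values had been seen, and the levels of other genes in them are descriptions. Cells of a group share their library, and deeper cells pass a count threshold more easily.

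At least 2 UMIs of Gja5, the arterial connexin 40, were found in 7 cells, 1 from GA and 6 from Control, with a median of 57927 UMIs against 24214 UMIs in the other 71. Gja4, a further arterial connexin, was found in all 7 of them at 332 CPM, and in 18 of the other cells at 29.3 CPM. Of its 122 UMIs in the 7 cells, 56 were in 1 Control cell that also held 39 UMIs of Gja5 and 8 of Ptprc, and the GA cell had 2. Sema3g, a semaphorin of arteries, was at 171 CPM in these cells and 17.3 CPM in the others, Unc5b, a netrin receptor, at 231 and 36.0 CPM, and Igfbp3 at 3566 and 530 CPM. Selp was at 5.44 CPM in these cells and 907 CPM in the others. These cells, mostly of the Control library, were thus those in which the counts of several arterial genes were high, and they were deep.

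At least 5 UMIs of Esm1, endocan, which marks the tips of sprouts, were found in 17 cells, 4 of the 26 from GA and 13 of the 52 from Control. Their median was 52859 UMIs per cell, against 19512 UMIs in the others. Apln, the ligand apelin, was at 198 CPM in these cells and 44.8 CPM in the others. Pgf, placental growth factor, a ligand of Flt1, was at 404 and 111 CPM, and Adm, adrenomedullin, at 105 and 27.5 CPM. Genes of venules were lower in these cells to unequal degrees. Selp was at 28.5 CPM against 1160 CPM in the others, and Ackr1, an atypical chemokine receptor of venules, at 1.14 CPM against 149.8 CPM. Vcam1 was at 71.8 CPM against 260.5 CPM, and Icam1 at 53.5 CPM against 383 CPM.

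At least 10 UMIs of Selp, P-selectin, were found in 24 cells, 10 from GA and 14 from Control, with a median of 36700 UMIs against 23840 UMIs in the others. Ackr1 was at 265 CPM in these cells and 5.99 CPM in the others, and Sele, E-selectin, at 342 and 26.4 CPM. Icam1 was at 635 and 66.5 CPM, Vcam1 at 408 and 77.3 CPM, and the interleukin-1 receptor Il1r1 at 509 and 71.3 CPM. The chemokine Cxcl12 went the other way, at 13.7 CPM in these cells and 274 CPM in the others. Over 74 cells thinned to 5000 UMIs, the summed counts of the venous list and of the sprouting list, which share no gene, had a Spearman correlation of -0.493, a description of cells that share 2 libraries and a fixed total.

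At least 2 UMIs of Stab2, stabilin-2, a scavenger receptor of sinusoids, were found in 5 cells, 4 from GA and 1 from Control, at 1044 CPM, with a median of 18522 UMIs per cell. Mrc1, the mannose receptor, was at 390 CPM in these cells and 1.20 CPM in the other 73. Tfpi, an inhibitor of coagulation, was at 1859 and 75.1 CPM, Sema3a, a semaphorin that repels axons, at 934 and 8.39 CPM, and Adamts5, a protease of the matrix, at 1061 and 7.59 CPM. A single GA cell weighs heavily in these values, with 87 of the 123 UMIs of Stab2 and 61892 UMIs in all, and it also carried 55 UMIs of Ptprc and 291 of Cd74. The other 4 cells had 0 UMIs of Ptprc and Cd74. Some genes of other vessels had no count in the 5 cells, since Col15a1, Pdgfb, Esm1, Pgf and Gja4 had 0 UMIs, against 578 CPM of Col15a1 and 257 CPM of Pdgfb in the other 73 cells. Genes of venules and capillaries were present, with Selp at 1732 CPM against 736 CPM and Fabp4 at 3209 CPM against 881 CPM.

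At least 2 UMIs of Slco1a4, an organic anion transporter of the blood-brain barrier, were found in 7 cells, 3 from GA and 4 from Control. Their median was 43565 UMIs per cell, against 24214 UMIs in the others. Cldn5 was at 1934 CPM in these cells and 385 CPM in the others, but most of its UMIs, namely 150, 174 and 195, were in 3 of the 7 cells. Abcb1a, the drug exporter P-glycoprotein, was at 360 and 64.5 CPM, Lef1, a transcription factor of Wnt signalling, at 167 and 16.9 CPM, and Itm2a at 1438 and 206 CPM. Apcdd1, a Wnt inhibitor, was at 51.5 CPM in these cells and had 0 UMIs in the others, while Mfsd2a, a lipid transporter of that barrier, had 0 UMIs in all members.

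**Figure D2:**
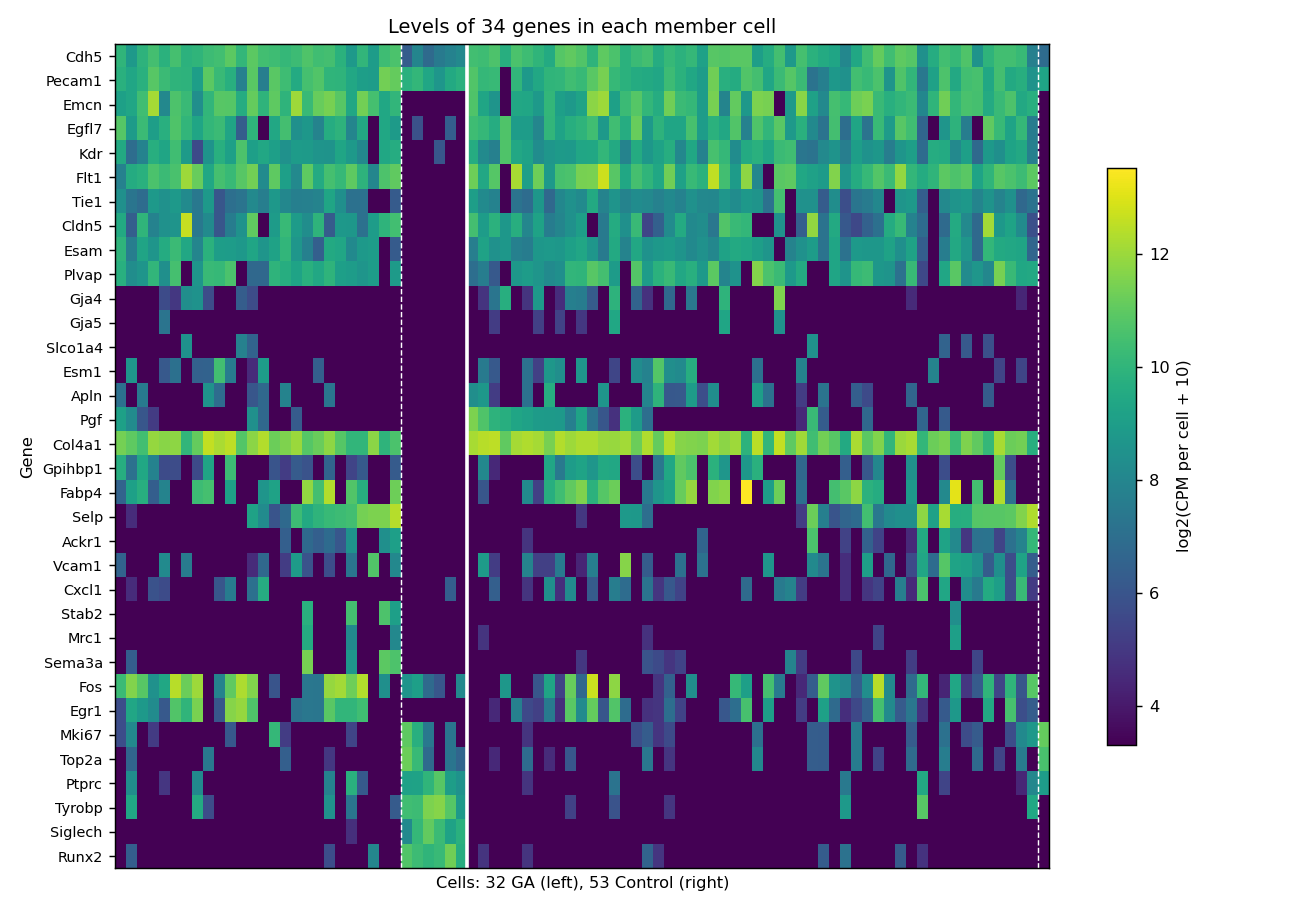
Each column is 1 of the 85 cells of the gate, GA (32 cells) left of the white line and Control (53 cells) right of it, ordered from high Pgf to high Selp. Colours show log2 of CPM per cell plus 10 for 34 genes, and the columns right of each dashed line are the 6 GA cells and 1 Control cell with under 4 of the 13 endothelial genes, in which most endothelial genes other than Cdh5 and Pecam1 are at 0 and Ptprc is found.

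Lymphatic endothelium was scarcely seen by the genes given here. Ccl21a and Reln had 0 UMIs in the members of both libraries, and Lyve1 had 1 UMI in GA and 0 in Control. Prox1, the transcription factor of lymphatic fate, had 9 UMIs over 5 cells of GA and 11 UMIs over 7 of Control. Of the 8 lymphatic genes, 4 had at least 20 UMIs over both libraries, and Pdpn and Mmrn1 are not reported singly. After thinning to 5000 UMIs, at least 3 of the 8 lymphatic genes, which include Flt4 and Nrp2 of blood vessels, were found in 6.67% of 30 GA members (0.818% to 22.1%) and in 1.96% of 51 Control members (0.0496% to 10.45%). Unthinned, the shares were 15.6% and 13.2%.

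Most members carried arterial and capillary genes at this depth, so a list alone did not single out a vessel type. At least 3 of the 16 arterial genes were found in 53.3% of GA members (34.3% to 71.7%) and 58.8% of Control members after thinning, and in 75% and 86.8% before it. At least 3 of the 13 capillary genes were found in 70.0% of GA members and 72.5% of Control members after thinning. With the 7 cells with few endothelial genes left out (24 GA and 50 Control cells), the arterial shares were 66.7% and 60% and the capillary shares 87.5% and 74%. In the neutrophil gate, thinned alike (3790 GA and 1177 Control cells), the arterial shares were 0.660% and 1.105% and the capillary shares 1.53% and 1.78%. In a gate of pericytes (92 GA and 299 Control cells) they were 8.70% and 9.03% for the arterial genes and 21.7% and 20.4% for the capillary genes, so some genes of these lists are found in other vessel cells.

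Single genes were compared in the same way, after leaving out the 2 members under 5000 UMIs in each library. RNA from outside a cell can give such a UMI, and scaling the profile of all cells to the S100a8 and S100a9 in the members put its share of their UMIs at 0.626% in GA and 0.767% in Control. The gate kept out cells with 3% or more of their UMIs from these genes, so this share rests on values that chose the members. That limit kept out 1 GA and 1 Control cell with the endothelial counts. Kit, the receptor of SCF, was found in 16.7% of GA members (5.64% to 34.7%) and 51.0% of Control members (36.6% to 65.25%), beside 2.90% and 4.76% in the neutrophil gate. Unthinned, the shares of Kit were 53.1% and 73.6%. Lama4, a laminin chain of vessel basement membrane, was found in 36.7% of GA members and 68.6% of Control members, and Igfbp3 in 33.3% and 64.7%. Beside these stood 0.633% and 0.935% of cells in the neutrophil gate for Lama4, and 0.501% and 1.36% for Igfbp3. Unthinned, Lama4 was found in 59.4% and 88.7% of members and Igfbp3 in 56.2% and 77.4%. The 6 GA cells with Siglech count among the 30 in these shares. Without the 7 cells the thinned shares were 16.7% and 52% for Kit, 45.8% and 70% for Lama4 and 41.7% and 66% for Igfbp3. Plvap was found in 63.3% and 74.5% after thinning, and in 71.9% and 86.8% before it. Esm1 was found in 16.7% and 19.6% and Selp in 33.3% and 41.2% after thinning. Without the 7 cells Plvap was at 79.2% and 76%, Esm1 at 20.8% and 20% and Selp at 41.7% and 42%. Siglech was found, unthinned, in 7 GA members, namely the 6 cells described above and 1 cell with a single UMI. It was found in 0 of 53 Control members, which allows up to 5.66% of cells with a UMI at this depth.

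**Figure D3:**
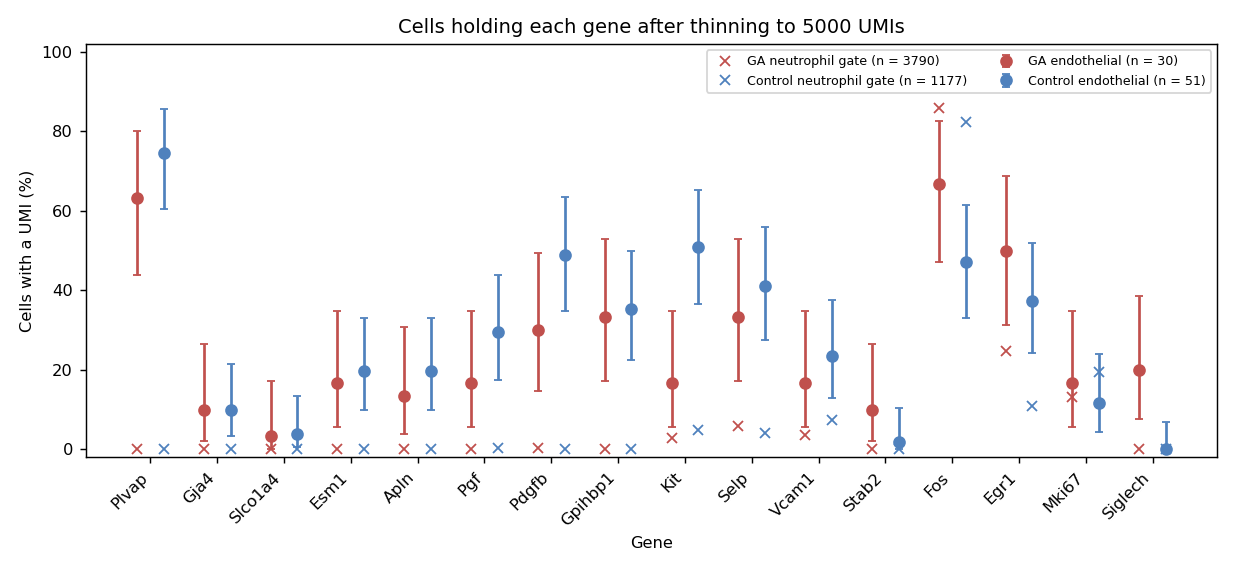
Points show the percent of members with at least 1 UMI of each gene after thinning to 5000 UMIs, GA (30 cells, red) and Control (51 cells, blue), with exact 95% Clopper-Pearson intervals that cover counting error only. Crosses show the share in the neutrophil gate, which is at or near 0 for most of the vessel genes and above 80% for Fos.

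The comparison of GA with Control asked how transcript levels within endothelial cells differed between the libraries. UMIs were summed over the members of a library, divided by their total and expressed as CPM, with no division by gene length since 3′ ends are counted, so levels are compared between libraries and not between genes. Ratios are log2 of GA over Control, with exact conditional binomial intervals. Of 4720 genes with at least 100 UMIs over both libraries, 187 (3.96%) were at least 2-fold higher in GA and 121 (2.56%) at least 2-fold lower. In the 78 cells, 108 of 4497 genes (2.4%) were higher and 93 (2.07%) lower, so fewer genes were past 2-fold on the higher side without the 7 cells with few endothelial genes. Among genes with at least 20 UMIs, the floor for members of a list, 791 of 9514 (8.31%) were higher and 424 (4.46%) lower in the gate. Those in the 78 cells were 528 of 9198 (5.74%) and 450 (4.89%). In the 69 cells low in Ptprc, 83 of 3713 genes with at least 100 UMIs (2.24%) were higher and 95 (2.56%) lower, and with at least 20 UMIs 414 of 8376 (4.94%) were higher and 507 (6.05%) lower. Counts of list members below are to be read beside these shares of all genes. The floor of 20 UMIs is set on both libraries together, so some genes passed it through 1 library alone. Gja5, Hey1, Ptch1, Gli3 and Ankrd37 did so through Control, for example, and Stab2 and Sema3a through GA. Over all genes with at least 20 UMIs the median log2 ratio was 0.08 in the gate, 0.04 in the 78 cells and 0.03 in the 69 cells. No fewer of all genes thus lay above 0 than below it in each set. For 265 of the 311 genes of the lists with at least 20 UMIs, 5 cells held the majority of the UMIs of 1 library or both, so most ratios rest on few cells. Of the genes named in this text, Cdh5, Pecam1, Egfl7, Kdr, Flt1, Tie1, Eng, Erg, Esam, Ecscr, Plvap, Notch1, Tgfb1, Nfkbia, H2-K1, B2m, Col4a1 and Fgfr1 were more evenly spread.

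The VEGF and angiopoietin receptors were at like levels in both libraries, while the ligands Pgf and Apln were lower in GA. Flt1 had a log2 ratio of -0.19 (-0.29 to -0.09), with 1509 and 1513 CPM in the 78 cells. Tie1 had a ratio of -0.09, Tek, the angiopoietin receptor, 0.37 (0.12 to 0.62), and Flt4, VEGF receptor 3, 0.43 (0.02 to 0.84). Of the 15 genes of this pathway with at least 20 UMIs, 0 were past 2-fold higher and 3 past 2-fold lower, namely Pgf, Apln and Vegfa, with a median of -0.09. All 3 are ligands, and Vegfa passed the floor of 20 UMIs only through Control. The list of this pathway holds Kdr, a gene of the rule, so its median draws in part on values that chose the cells. Over the 69 cells low in Ptprc, 2 of 13 genes were past 2-fold lower and 0 higher. Vegfa rested on few counts, with 4 UMIs in GA and 56 UMIs in Control and a ratio of -2.69 (-4.61 to -1.25), which was -0.25 over the 69 cells low in Ptprc.

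Pgf (chr12:85166635-85177790) had 61 UMIs over 7 cells of GA and 488 UMIs over 23 of Control, that is, 70.5 and 259 CPM. The median cell of either library had 0 UMIs, and the highest had 24 in GA and 89 in Control, so the level was set by a minority of cells. The log2 ratio was -1.88 (-2.29 to -1.49), and it was -1.70 in the 78 cells and -2.05 in the 69 cells low in Ptprc. In all other cells Pgf was at 3.41 CPM in GA and 10.3 CPM in Control. At least 5 UMIs of Pgf were found in 3 of 26 GA cells and 17 of 52 Control cells with endothelial genes.

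Several tip genes lay on the same side. Esm1 (chr13:113209659-113218098) was at 85.5 CPM in GA and 155 CPM in Control, a log2 ratio of -0.86 (-1.25 to -0.49). Apln was at 43.9 and 114 CPM, a ratio of -1.37 (-1.91 to -0.87), and its receptor Aplnr at 285 and 242 CPM, a ratio of 0.24 (0.01 to 0.46). Adm was at 23.1 and 63.7 CPM, a ratio of -1.46 (-2.23 to -0.77). Angpt2, a ligand that loosens vessels, had a ratio of -0.33 (-0.68 to 0.01), and Cxcr4, the receptor of Cxcl12, -0.37 (-0.71 to -0.04). Of the 24 sprouting genes, 19 had a ratio below 0 and 3 were past 2-fold lower, with a median of -0.37. Of these, in the 78 cells, 18 lay below 0, 3 were past 2-fold lower and the median was -0.20, and over the 69 cells low in Ptprc 14 lay below 0 and 10 above. Nid2, Lama4, Col4a1, Col4a2, Sparc and Hspg2 of this list are counted again among the matrix genes below.

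Arterial and Notch genes were split. Gja4 was at 30.0 CPM in 7 GA cells and 86.0 CPM in 18 Control cells, a log2 ratio of -1.52 (-2.18 to -0.91). Gja5 had 7 UMIs in 1 GA cell and 59 UMIs in 7 Control cells, and its ratio of -1.95 was -0.03 over the 69 cells low in Ptprc. Jag1, a Notch ligand, had a ratio of -1.29 (-2.04 to -0.61), while Dll4, the ligand of tip and arterial cells, had -0.19 (-0.63 to 0.24). Notch1 was at 179 and 169 CPM, a ratio of 0.08 (-0.20 to 0.37). Hes1, a target of Notch, was higher in GA at 327 and 157 CPM, a ratio of 1.06 (0.82 to 1.30), and Hey1, a further target, was lower with 10 and 46 UMIs, a ratio of -1.08 (-2.23 to -0.07). Of the 15 arterial genes with at least 20 UMIs, 2 were past 2-fold higher and 5 lower, with a median of -0.54 that was -0.03 over the 69 cells. Of the 12 Notch genes, 1 was higher and 2 were lower, with a median of 0.04.

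Of the angiocrine signals, Pdgfa had the lowest ratio. Pdgfa (chr5:138976014-138997370), a growth factor for mesenchymal cells, was at 69.3 CPM in GA and 253 CPM in Control, with UMIs in 17 and 41 cells. The median cell was at 31.5 CPM in GA and 94.6 CPM in Control. Its log2 ratio was -1.87 (-2.28 to -1.48), and it was -1.81 in the 78 cells and -1.39 in the 69 cells low in Ptprc. Pdgfb, which recruits pericytes, was at 151 and 272 CPM, a ratio of -0.85 (-1.14 to -0.57). Ccn2, a matrix-associated growth factor, had a ratio of -1.31 (-1.96 to -0.71), which was -0.78 over the 69 cells. Kitl was at 434 and 511 CPM, a ratio of -0.23 (-0.41 to -0.06), Cxcl12 at 165 and 174 CPM, and Tgfb1 had a ratio of -0.22 (-0.48 to 0.03). The bone morphogenetic proteins were at low counts, with 20 and 57 UMIs of Bmp4 and 26 and 73 UMIs of Bmp2, and their intervals included 0. Of the 17 angiocrine genes with at least 20 UMIs, 4 were past 2-fold lower and 0 past 2-fold higher, with a median of -0.39. Over the 69 cells low in Ptprc, 2 of 16 were lower and 2 higher. The 4 were Pdgfa, Ccn2, the Notch ligand Jag1 and Slit3, of which Slit3 rested on 4 and 31 UMIs.

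Several genes of neural signals were not detected in these cells at this depth. Ngfr, the low-affinity receptor of neurotrophins, had 0 UMIs in the members of both libraries, and so had Ntrk3, Bdnf and Ntf3. Of the hedgehog pathway, Shh, Gli1, Gli2 and Hhip had 0 UMIs. Smo, the transducer of the pathway, was at 15.02 and 13.3 CPM. Ptch1, the receptor and a target, had 9 UMIs over 7 cells of GA and 47 UMIs over 19 of Control, a log2 ratio of -1.26 (-2.48 to -0.22) that was -0.80 over the 69 cells low in Ptprc, and Gli3, mostly a repressor, had 5 and 53 UMIs, a ratio of -2.28 (-3.97 to -0.97). Tacr1, the receptor of substance P, was at 25.4 and 75.4 CPM, a ratio of -1.57 (-2.29 to -0.91). Receptors of the CGRP family, Calcrl and Ramp2, were at like levels, with ratios of -0.10 and 0.02. Sema3a had 115 UMIs over 5 cells of GA and 16 UMIs over 10 of Control, and it is the gene found with Stab2 above. Of the 17 genes of this list with at least 20 UMIs, 3 were higher and 4 lower by 2-fold, with a median of -0.02. Among those past 2-fold, Ptch1 and Gli3 passed the floor only through Control and Sema3a only through GA.

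Genes of the immediate early response were mostly higher in GA. Fos (chr12:85473890-85477273), a subunit of the AP-1 transcription factor, had 1757 UMIs over 25 cells of GA and 980 UMIs over 35 of Control. That is 2029 CPM (1936 to 2127) in GA and 520 CPM (488 to 554) in Control. The median cell was at 365 CPM in GA and 67.3 CPM in Control, and the highest had 260 and 205 UMIs, so cells without Fos stood in both libraries. The log2 ratio was 1.96 (1.85 to 2.08), and it was 2.12 in the 78 cells and 2.29 in the 69 cells low in Ptprc. Outside the members Fos was found as well. It was at 1036 and 809 CPM in all other cells, at 1169 and 705 CPM in a gate of mesenchymal cells, and at 1055 and 1046 CPM in the neutrophil gate.

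Egr1, an immediate early zinc finger factor, was at 824 CPM in GA and 236 CPM in Control, a log2 ratio of 1.8 (1.63 to 1.98). Klf2, a factor that responds to blood flow, was at 551 and 225 CPM, a ratio of 1.29 (1.10 to 1.49). Socs3, an inhibitor of cytokine signalling, had a ratio of 1.06 (0.89 to 1.23), Ier2 1.05 (0.77 to 1.33) and Jun 0.85 (0.71 to 1.00). The heat shock genes Hspa1a and Hspa1b had smaller ratios of 0.29 and 0.48. The list went both ways, since Nfkbia and Ier3, both known targets of NF-kB, were lower in GA. Nfkbia (chr12:55489410-55492647), the inhibitor of NF-kB, was at 539 and 1200 CPM, a ratio of -1.15 (-1.30 to -1.01) that was also -1.15 in the 78 cells. Ier3 was at 494 and 967 CPM, a ratio of -0.97. Of the 19 genes of the list with at least 20 UMIs, 16 had a ratio above 0, 5 were past 2-fold higher and 1 past 2-fold lower, with a median of 0.49. With the 78 cells alone 6 were higher, 1 was lower and the median was 0.67.

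Several adhesion molecules and chemokines of activated endothelium were lower in GA, while their list was split. Vcam1 (chr3:116109949-116129688), which binds leukocyte integrins, had 54 UMIs over 12 cells of GA and 463 UMIs over 30 of Control, a log2 ratio of -1.98 (-2.41 to -1.57). Of the Control counts, 170 came from 1 cell, and the ratio was -1.75 without the top cell of each library and -1.07 (-1.57 to -0.60) over the 69 cells low in Ptprc. Cxcl1, a chemokine for neutrophils, had 27 UMIs over 8 cells of GA and 407 UMIs over 30 of Control, a ratio of -2.79 (-3.41 to -2.23) that was -1.81 over the 69 cells. Outside the gate Cxcl1 was at 371 and 607 CPM. Icam1 had a ratio of -0.83 (-1.10 to -0.57), Il1r1 -1.21 (-1.54 to -0.90) and Ackr1 -1.15 (-1.65 to -0.68), and over the 69 cells Il1r1 was at -0.27 and Ackr1 at -0.52, with intervals that included 0. Selp was at 514 and 850 CPM, but 432 of its 1601 Control UMIs came from 1 cell, and over the 69 cells low in Ptprc its ratio of -0.73 became 0.20. Sele was at 135 and 134 CPM. Lrg1, which is induced in inflamed venules, was higher at 462 and 284 CPM, a ratio of 0.70 (0.51 to 0.89). Of the 16 venous and activation genes, 4 were past 2-fold lower and 0 past 2-fold higher, with a median of -0.15. Of the 16, 9 lay below 0 in the gate and 7 in the 78 cells, with a median of 0.02 there. In the 69 cells low in Ptprc, 2 were lower and 2 higher by 2-fold and the median was 0.20.

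**Figure D4:**
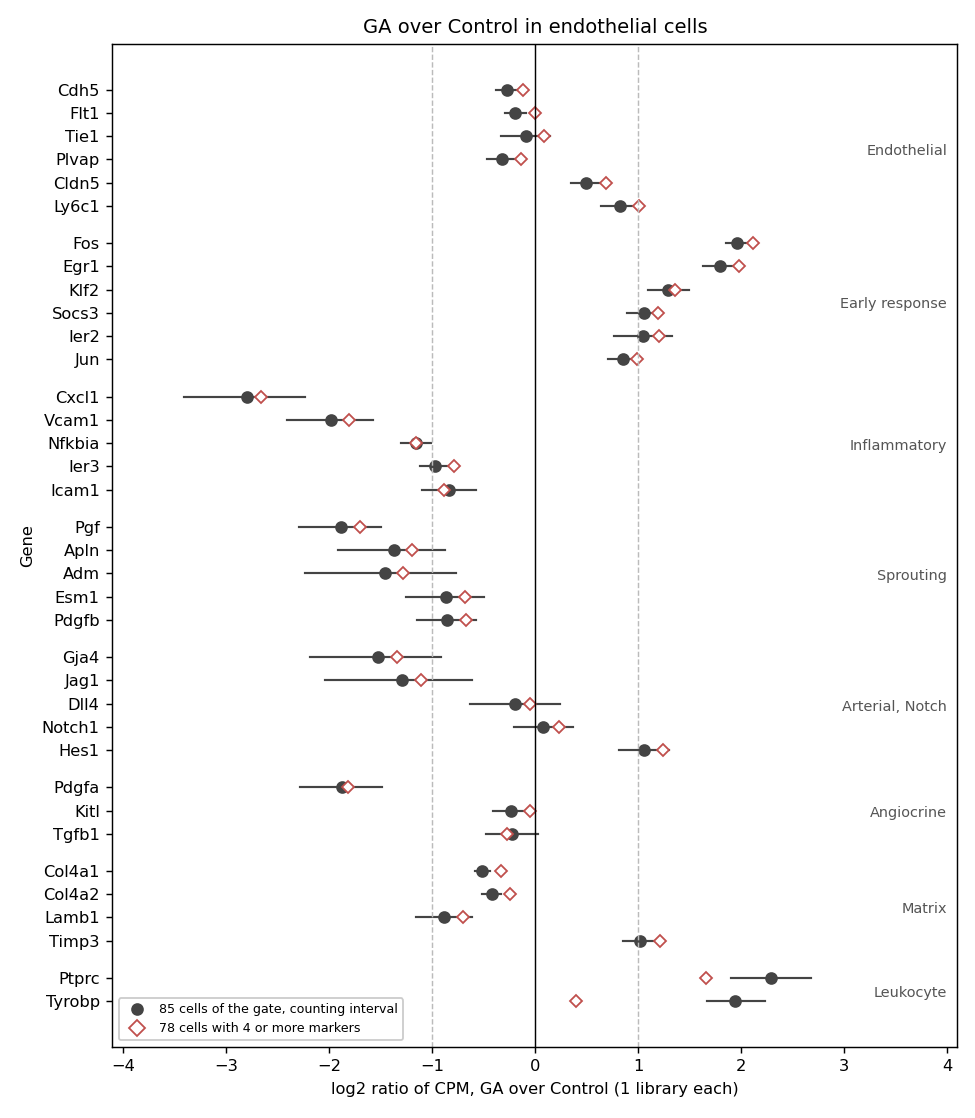
Filled points show the log2 ratio of CPM, GA over Control, for 36 genes in the 85 cells of the gate, with exact 95% counting intervals, and open diamonds the ratio in the 78 cells with at least 4 of the 13 endothelial genes. Dashed lines mark 2-fold. Fos, Egr1 and Klf2 lie to the right and Cxcl1, Vcam1, Pgf and Pdgfa to the left in both sets of cells, while Tyrobp moves from 1.94 to 0.40.

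Some genes of the type I interferon response and of antigen presentation rested on single cells. Of 26 interferon genes, 5 were past 2-fold higher and 2 past 2-fold lower, with a median of 0.07, and over the 69 cells low in Ptprc 6 of 25 were higher and 0 lower, with a median of 0.45. Irf7 had a log2 ratio of 1.04 (0.54 to 1.54) and Cxcl10 -1.79 (-2.25 to -1.35), which was -0.40 (-0.91 to 0.08) for Cxcl10 over the 69 cells. Isg15 was at 127 and 115 CPM, and its ratio of 0.14 was -0.88 without the top cell of each library. The MHC class I genes H2-K1 and B2m had ratios of 0.01 and 0.11. The class II counts came mostly from 1 GA cell. H2-Aa had 181 UMIs in GA, of which 176 were in 1 cell, and 29 UMIs in Control, and its ratio of 3.76 was -0.56 without the top cells. Cd74, the class II chaperone, had 291 of its 316 GA UMIs in 1 cell. Of the 13 MHC genes with at least 20 UMIs, 6 were past 2-fold higher in the gate and 4 in the 78 cells, and over the 69 cells low in Ptprc 0 of 9 were.

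Capillary genes were lower in GA or at like levels. Gpihbp1, which anchors lipoprotein lipase on capillaries, was at 118 CPM in 17 GA cells and 271 CPM in 26 Control cells, and its ratio was -0.94 over the 69 cells low in Ptprc. Fabp4, a carrier of fatty acids, was at 747 and 1027 CPM, a log2 ratio of -0.46 (-0.59 to -0.33) that was -1.35 over the 69 cells. Rgcc had a ratio of -0.20 (-0.36 to -0.03). Meox2, a transcription factor of capillaries, had 0 UMIs in GA and 47 UMIs in 10 Control cells, which bounds its ratio at -2.85 or lower when GA is set to 3 counts. Of the 12 capillary genes with at least 20 UMIs, 4 were past 2-fold lower and 0 past 2-fold higher, with a median of -0.38. Over the 69 cells 5 were lower and 2 higher. Meox2 counts among the lower genes, and it passed the floor of 20 UMIs only through Control.

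Summed levels of barrier and sinusoidal genes were mostly higher in GA, while the share of cells with at least 3 of them was not. After thinning to 5000 UMIs that share was 70.0% of GA and 86.3% of Control members for the sinusoidal genes, and 50% and 60.8% for the barrier genes, with the 6 cells with Siglech among the GA members. With 24 GA and 50 Control cells of the 78, the shares were 87.5% and 88% for the sinusoidal genes and 62.5% and 60% for the barrier genes. The gate of pericytes gave 73.9% and 71.2% for the sinusoidal genes and 57.6% and 53.2% for the barrier genes, so these lists were not found in members alone. Pltp, a phospholipid transfer protein, was at 290 and 105 CPM, a log2 ratio of 1.46 (1.19 to 1.74) that was 2.34 over the 69 cells low in Ptprc, and Cldn5 had a ratio of 0.50 (0.35 to 0.66). The median of the 10 barrier genes with at least 20 UMIs was 0.54 and 2 were past 2-fold higher, but the median was -0.24 without the top cell of each gene and library. Tfpi was at 281 and 87.1 CPM, a ratio of 1.69 (1.40 to 1.98). Stab2 (chr10:86841198-87008025) had 117 UMIs in 4 GA cells, 87 of them in 1, and 6 UMIs in 1 Control cell, a ratio of 5.41 (4.24 to 6.88) that describes these 5 cells and was 3.81 over the 69 cells. Of the 12 sinusoidal genes with at least 20 UMIs, 5 were past 2-fold higher and 1, Vcam1, past 2-fold lower, with a median of 0.52. The sinusoidal list holds Emcn, a gene of the rule, so its median and shares draw in part on values that chose the cells.

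Most genes of the basement membrane and matrix lay below 0, but those past 2-fold were about as frequent as among all genes. Col4a1, the main collagen of vessel basement membrane, was at 2454 CPM in GA and 3502 CPM in Control, and its median cell was at 2128 and 3112 CPM. The log2 ratio was -0.51 (-0.58 to -0.44) in the gate and -0.33 in the 78 cells. Lamb1, a laminin chain, had a ratio of -0.88 (-1.15 to -0.61), and Bgn, the proteoglycan biglycan, -1.24 (-1.60 to -0.90). Timp3, an inhibitor of matrix proteases, went the other way at 619 and 305 CPM, a ratio of 1.02 (0.85 to 1.19). Mgp, an inhibitor of calcification, had a ratio of 1.03 that was -0.44 without the top cells and 2.14 over the 69 cells low in Ptprc. Of the 24 matrix genes, 20 lay below 0, 2 were past 2-fold higher and 1 past 2-fold lower, with a median of -0.37 that was -0.19 in the 78 cells. Those below 0 were 17 in the 78 cells and 15 in the 69 cells low in Ptprc. Col4a1, Col4a2, Lama4, Nid2, Sparc and Hspg2 also stand in the sprouting list, so the matrix and sprouting counts partly cover the same genes.

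Within the members, genes used to follow a shift of endothelium towards mesenchyme were not higher in GA. Of 14 with at least 20 UMIs, 0 were past 2-fold higher and 5 past 2-fold lower, with a median of -0.51. Col1a1, fibrillar collagen I, was at 70.5 and 222 CPM in the members and at 9512 and 14130 CPM in the other cells. S100a4 had a log2 ratio of -1.54 that was 1.17 over the 69 cells low in Ptprc. Snai1 was at 39.3 and 36.1 CPM, and Vim, vimentin, which endothelial cells also express, at 5343 and 6489 CPM. The rule limited what this list could show. It kept out 4 GA and 13 Control cells that had the endothelial counts but over 3 UMIs of Pdgfra and Prrx1. Whether cells shifted towards mesenchyme was therefore not tested.

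Hypoxia and glycolysis genes were slightly lower in GA, and the cell cycle list rested on the 7 doubtful cells. Of 22 hypoxia and glycolysis genes, 19 lay below 0, 4 were past 2-fold lower and 0 past 2-fold higher, with a median of -0.27. Ankrd37, a target of HIF, had 16 UMIs over 7 cells of GA and 147 UMIs over 21 of Control, a log2 ratio of -2.08 (-2.92 to -1.33), while Epas1, HIF-2 alpha, was at 364 and 361 CPM. Of 21 cell cycle genes, 7 were past 2-fold higher in the gate, with a median of 0.74. With the 78 cells alone 1 of 19 was higher and 1 lower, with a median of 0.06. Top2a had a ratio of 1.24 in the gate and -1.14 in the 78 cells.

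**Figure D5:**
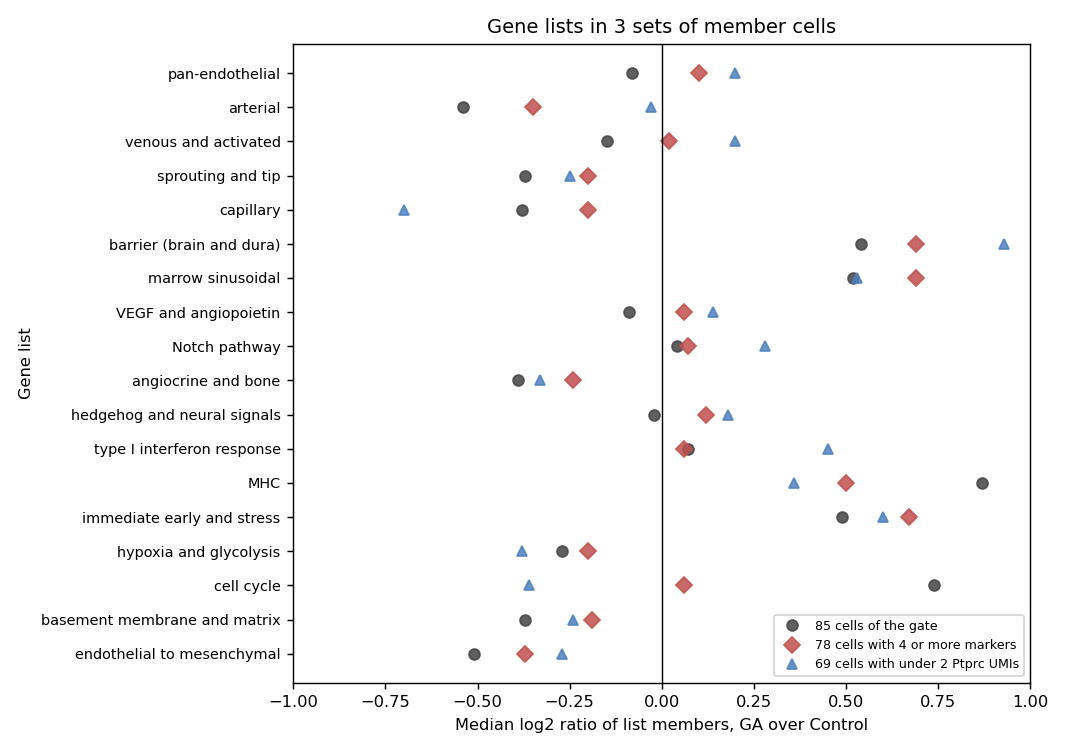
Points show the median log2 ratio, GA over Control, over the members of each list with at least 20 UMIs, in 3 sets of cells: the 85 cells of the gate, the 78 cells with at least 4 of the 13 endothelial genes and the 69 cells with under 2 UMIs of Ptprc. The medians of the immediate early, barrier and sinusoidal lists lie right of 0 in all 3 sets, the matrix, sprouting and hypoxia lists left of 0, and the cell cycle list changes side.

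Whether or not they stood in a list, the genes with the most extreme ratios mostly rested on few cells. Among genes with at least 200 UMIs, the 15 highest in the gate were Ly6d, Cox6a2, Cd74, H2-Ab1, Palld, H2-Aa, Plek, Nr4a3, Irf8, Ptprj, Mir142hg, Dock10, Lsp1, Tex2 and Aff3. All 792 GA UMIs of Ly6d and all 200 of Cox6a2 were in the 6 cells with Siglech. Of the 15, Cd74, Plek, Ptprj, Mir142hg, Dock10 and Lsp1, genes known from leukocytes, were more abundant in the other cells of the library than in the members. Palld, which bundles actin, had 277 of its 331 GA UMIs in 1 cell, and Nr4a3, an orphan nuclear receptor, 172 of 222.

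When the 7 cells were left out, Fos, Egr1 and Tfpi were among the 15 highest. So was Nr4a2, a nuclear receptor of the immediate early class, with a log2 ratio of 1.73 that was 0.97 over the 69 cells low in Ptprc, Ahcyl2 with 1.70 and Tsc22d2 with 1.56. Tsc22d2 had UMIs in 31 GA and 42 Control members of the gate, and the median cell was at 168 CPM in GA and 90.5 CPM in Control. S100a8 and S100a9, the genes of neutrophils, were also among the 15, with ratios of 1.69 and 1.62. The rule put an upper limit on both, so these ratios rest on values that chose the members. In all other cells the ratios were 1.89 and 1.85.

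Among the 15 lowest genes of the gate were Ctsk, Tll1, Depp1, Ptgs2, Cxcl1, Slc2a13, Rnd1, Vcam1, Pgf, Pdgfa, Cxcl10, Col1a1, Fgfr1 and Mest. Of these, Ctsk, Cxcl1, Col1a1 and Fgfr1 were more abundant in the other cells than in the members. Ctsk, cathepsin K of osteoclasts, had 306 of its 319 Control UMIs in 1 cell, and Tll1 219 of 311. Ptgs2, cyclooxygenase 2, had a log2 ratio of -2.94 that was -3.44 without the top cell of each library and -0.90 over the 69 cells low in Ptprc. Depp1 (chr6:116650609-116652794), a target of FOXO factors, was spread more widely, with 10 UMIs over 7 cells of GA and 261 UMIs over 27 of Control, at most 53 in 1 cell. Its log2 ratio was -3.58 (-4.66 to -2.68) in the gate, -3.40 in the 78 cells and -3.62 in the 69 cells low in Ptprc. It was at 0.220 and 0.782 CPM in all other cells. Rnd1, a small GTPase, had 32 UMIs over 13 cells of GA and 292 UMIs over 31 of Control, a ratio of -2.07 (-2.64 to -1.54) that was -1.05 (-1.66 to -0.49) over the 69 cells.

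Markers of other cell types differed between the libraries within the members, and their part in the ratios was not tested. The 12 neutrophil genes summed to 592 CPM in GA members and 210 CPM in Control members, beside 95910 and 27370 CPM in the other cells. S100a9, the most abundant, was at 274 and 91.9 CPM, and Ly6g had 0 UMIs. The rule limited S100a8 and S100a9, so this sum rests in part on values that chose the members. The 6 genes of all leukocytes summed to 1153 CPM in GA and 367 CPM in Control, to 592 and 355 CPM in the 78 cells, and to 30.7 and 55.5 CPM in the 69 cells low in Ptprc. All 6 were past 2-fold higher in GA in the gate and 1 in the 78 cells, and the most abundant was Tyrobp, at 343 and 89.2 CPM.

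Sums of the other lists went both ways. The 11 macrophage genes summed to 797 and 1094 CPM, with Lyz2 at 526 and 804 CPM, and C1qa had 4 and 3 UMIs. The 15 mesenchymal and osteoblast genes, which include Pdgfra and Prrx1 of the rule, summed to 554 and 768 CPM. In the other cells they summed to 27710 and 42120 CPM, and Sp7 had 0 UMIs in the members. Runx2 was an exception, with 167 UMIs in GA, of which 159 were in the 6 cells with Siglech, and 20 UMIs in Control. Pericyte and smooth muscle genes summed to 121 and 181 CPM, with Abcc9 at 82.0 and 45.7 CPM and Myh11 at 0 and 1 UMI. Lymphoid genes summed to 120 and 88.1 CPM, megakaryocyte genes to 17.3 and 31.3 CPM, erythroid genes to 9.24 and 21.2 CPM and Schwann genes to 34.7 and 17.0 CPM. Sox10, Cd3e, Alas2 and Gp1bb, each a defining gene of its cell type, had 0 UMIs in the members.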

How the data were processed

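Droplet libraries with unique molecular identifiers (UMIs) were made for GA and Control, 1 library for each condition from the pooled cells of 5 mice. The authors deposited UMI counts per gene and barcode, as whole numbers without normalization. The file headers name Cell Ranger 7.0.1 and the submitters' processing notes name build mm10, while the study's methods name Cell Ranger 7.1.0. The label gives a dose of 1.2 mg/kg and the methods give 2 mg/kg. The files hold 32285 genes, of which 40 repeated symbols were left out, and 182949385 UMIs in 9322 GA barcodes and 214993030 UMIs in 8718 Control barcodes.

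Cells within the limits and the gate given above were summed per library and compared as CPM, with exact Poisson, Clopper-Pearson and conditional binomial intervals that cover counting error only. No test was run, since 0 conditions had a replicate. A gene was counted as higher or lower past 2-fold, among genes with at least 100 UMIs, or 20 UMIs for members of lists. Thinning drew 5000 UMIs per cell without replacement (seed 7). Doublets were kept in the main values and left out in an alternative by Scrublet score, at 0.8% per 1000 barcodes.

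The members, the 29 lists (390 genes, of which 2 symbols were not in the files) and all alternatives were chosen with earlier results of these data known, and 2 alternatives, the limit of 4 of 13 markers and the denominator of cells low in S100a8 and S100a9, after the values had been seen. The text names genes of the lists, the 15 highest and 15 lowest ratios among genes with at least 200 UMIs (leaving out mitochondrial, ribosomal, Gm and Rik genes), and the 20 genes that most led the members over other cells. Siglech, Runx2 in the 6 GA cells, Kit and the genes found in the cells grouped by 1 gene were added after their values had been seen, as were Tsc22d2, Nr4a2 and Ahcyl2. Some genes that this rule names are not reported here. Gene positions are those of GENCODE and promoters those of RefSeq, both of mouse build GRCm38. Python 3.11.15, numpy 2.4.6, scipy 1.17.1, pandas 2.3.3, scanpy 1.11.5 and matplotlib 3.10.9 were used, and the ratio and interval code was tested on simulated data.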

Additional observations from a re-analysis of the deposited data

How the results depend on the processing

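With 1 library per condition, every ratio describes 2 libraries, and for the 15 highest and 15 lowest genes 290 log2 ratios under the alternatives stayed within their counting interval, 118 moved beyond it and 8 reversed. No paired analysis was possible because neither condition had a replicate. Of these 8, all but 2 came with leaving out cells with 2 or more UMIs of Ptprc, where the log2 ratios were -0.84 for Cd74, -1.32 for Dock10, -0.10 for H2-Aa, -1.59 for Irf8, -0.10 for Lsp1 and -0.10 for Tex2. The other reversals were H2-Aa at -0.56 without its top cells and Tex2 at -0.19 in the 78 cells. Other named genes were not in this count, and among them Selp (0.20) and S100a4 (1.17) changed sign in the cells low in Ptprc, Top2a (-1.14) in the 78 cells, and Mgp (-0.44) and Isg15 (-0.88) without the top cells. The ratio of Pgf stayed between -2.45 and -1.73 over the looser, stricter, doublet, mean-over-cells, top-cell and background alternatives.

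The numbers of genes past 2-fold, 187 higher and 121 lower, were 486 and 371 at 1.5-fold, 80 and 62 with at least 200 UMIs, 374 and 210 with at least 50 UMIs, 3337 and 1513 with no filter, 393 and 395 with cells thinned, and 379 and 249 with the looser gate. By over 1.5 times, the higher side alone moved to 108 in the 78 cells, 83 in the cells low in Ptprc and 115 with the stricter gate, while the lower side, at 93 in the 78 cells and 95 in the cells low in Ptprc, moved by less.

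Medians of lists moved by setting. Without cells with Ptprc they were 0.36 (MHC), -0.03 (arterial), 0.93 (barrier), -0.36 (cell cycle), -0.27 (endothelial to mesenchymal) and 0.20 (pan-endothelial). With the looser gate they were -0.46 (VEGF), -0.97 (arterial), -0.83 (basement membrane), 1.69 (cell cycle), 0.20 (immediate early), -0.49 (pan-endothelial), -0.80 (sprouting) and -0.35 (interferon). As the mean over cells they were -0.43 (VEGF), -0.85 (capillary) and -0.37 (pan-endothelial). In the 78 cells they were 0.50 (MHC) and 0.06 (cell cycle). Thinned, they were 0.06 (barrier), -0.32 (endothelial to mesenchymal) and 0.31 (immediate early). Without the top cells they were -0.24 (barrier) and -0.34 (interferon), and without Scrublet doublets -0.30 (endothelial to mesenchymal).

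The share of members was 0.6197% in GA and 0.9267% in Control with the looser gate, 0.8641% in Control with the gate on thinned cells, and 0.7522% and 0.8749% among cells low in S100a8 and S100a9, a ratio of 0.8598. Scrublet left out 3 GA and 7 Control members. The share with at least 3 arterial genes was 75% in GA and 86.79% in Control without thinning, 80% and 82.22% at 10000 UMIs, and 70% and 78.43% with at least 2 genes. The capillary share in Control was 86.79% without thinning, 84.44% at 10000 UMIs and 88.24% with at least 2 genes, and the lymphatic share 15.6% in GA and 13.21% in Control without thinning and 20% and 27.45% with at least 2 genes. Depth limits single genes, since 1 UMI in the summed GA members is worth more CPM than in Control. The cause of these changes was not tested.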

Other observations

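Among the 78 cells with at least 4 of the 13 endothelial genes, 24 had at least 20 UMIs of Fos, 14 of the 26 from GA (53.8%) and 10 of the 52 from Control (19.2%). These cells were deeper, with a median of 38532 UMIs against 21102 UMIs in the others. Egr1 was at 1113 CPM in them and 76.6 CPM in the others, Jun at 1197 and 259 CPM, Klf2 at 630 and 163 CPM and the heat shock gene Hspa1a at 768 and 146 CPM. Nfkbia went the other way, at 700.4 and 1193 CPM. Immediate early genes were not limited to these cells, since at least 3 of the 20 were found in 93.3% of GA and 96.1% of Control members after thinning to 5000 UMIs.

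In the 20 cells with at least 5 UMIs of Pgf, 3 from GA and 17 from Control, Adm was at 116 CPM against 15.3 CPM in the others and Ankrd37 at 117 against 28.8 CPM, with a median of 52987 UMIs per cell against 19373 UMIs. The groups were formed after the values had been seen and carry no test.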
